A study of Homo sapiens with 6 samples.

Results

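The MYC network is a set of transcription factors that share the dimerization partner MAX or its relative MLX. The 10 genes described here are MYC, MAX, the repressors MXD1, MXD3, MXD4, MXI1, MNT and MGA, and the parallel pair MLX and MLXIP. They were taken by gene symbol from a table of 26485 entries, all 10 were found, and all 10 passed the filter on low counts. RNA was sequenced from REH, a long-established human leukemia line of B-precursor lymphoblasts. The 3 ML141 libraries came from cells given 25 µM ML141, an inhibitor of the GTPase CDC42, for 24 h. The 3 DMSO libraries came from cells given the solvent for 24 h. The series describes 3 independent experiments, all in this 1 line.

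MYC binds DNA as a dimer with MAX, mostly at the E-box sequence, and raises transcription of genes for growth, metabolism and ribosome production. MXD proteins, MNT and MGA compete for MAX and can bind the same sites. MXD proteins and MNT recruit repressors such as SIN3 and histone deacetylases, while MGA links MAX to a Polycomb complex. In lymphoid cells MYC is high during proliferation, and MXD genes are known to rise as cells stop dividing or differentiate. MLX, which also pairs with some MXD proteins, joins the glucose sensor MLXIP (MondoA) to form a second branch that controls metabolic genes.

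Promoter windows of 9 members were found in the RefSeq table for GRCh38.p14, each running from 250 bases before to 50 bases after the annotated start. MYC was not among these members, and its promoter was not searched. The 2 members with the highest log2 fold changes, MXD4 and MLXIP, are shown over the 250 bases before the start, and capitals mark a match to a searched motif.
MXD4, chr4:2262110-2262359, minus strand: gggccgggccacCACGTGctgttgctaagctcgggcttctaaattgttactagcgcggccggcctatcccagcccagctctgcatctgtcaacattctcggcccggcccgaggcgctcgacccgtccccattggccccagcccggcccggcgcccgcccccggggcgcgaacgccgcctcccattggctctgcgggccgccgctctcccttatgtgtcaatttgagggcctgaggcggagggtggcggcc
MLXIP, chr12:122078506-122078755, plus strand: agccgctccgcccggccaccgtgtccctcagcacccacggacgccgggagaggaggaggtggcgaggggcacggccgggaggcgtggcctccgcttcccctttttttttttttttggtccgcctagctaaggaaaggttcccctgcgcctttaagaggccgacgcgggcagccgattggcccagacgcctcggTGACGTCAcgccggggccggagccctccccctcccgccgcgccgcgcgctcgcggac
The other 3 matches are shown with their nearest bases, 28 in all, because they lie in the remaining members with a searched motif.
MXI1, chr10:110225983-110226010, plus strand: cgcggggagagGTAAACAaaccacgcgc
MNT, chr17:2401237-2401264, minus strand: cctgcccgggcCACGTGtgcgcgcgccg
MLX, chr17:42567039-42567066, plus strand: cgggcgcgggtCACGTGggcacgccacc

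The capitals in MXD4, MNT and MLX are the E-box CACGTG, the site bound by the network's own dimers. It begins 238, 193 and 50 bases before the start of MXD4, MNT and MLX. E-boxes were present in 3 of the 9 member windows, against 7.26% of 35116 promoter windows of the same length. In MLXIP the capitals are TGACGTCA, the cAMP response element bound by CREB and ATF factors, which 1.85% of windows hold. In MXI1 they are GTAAACA, a forkhead site that 3.42% of windows hold, which crosses the start. Motif TGATGNAA, bound by ATF4 with CEBP proteins and present in 3.62% of windows, had no match in the 9. All 4 motifs were searched on both strands, none of the matches overlapped another, and the motifs were chosen after the windows had been read. GENCODE places the first base of the MXI1 gene at 110207605, upstream of the window, which covers only the RefSeq start kept for the gene. The same holds for MAX (65102695, minus strand), MXD1 (69897688) and MGA (41621224). Motifs near these GENCODE starts were not searched. Any further RefSeq start of a member was not searched either, as only the last entry per gene was kept. Of the 3 members with an E-box, MXD4 was higher with ML141, while MNT and MLX did not pass the test described next.

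The libraries held 10436147 to 12308039 counts in the ML141 group and 8284299 to 10837224 in the DMSO group. Levels are CPM, a gene's counts relative to the total of its library, with that total scaled by TMM factors, which align the bulk of genes between libraries, and 1 count stood for 0.0754 to 0.130 CPM. Differences were tested with edgeR's quasi-likelihood test on 11454 genes, with Benjamini-Hochberg adjustment and a threshold of 0.05. Counts give each gene's share of the sequenced RNA, so fewer cells of a type and less RNA per cell cannot be told apart. Of 12 markers of B-precursor cells, 11 passed the filter, 8 were higher with ML141 and 0 lower. Of all genes tested, 26.7% were higher and 27.7% lower. The marker VPREB1, a surrogate light chain gene, had 1 count in all 6 libraries together. The summed level of that list was 9554 to 9717 CPM with ML141 and 6308 to 6853 CPM with DMSO by library totals. The 5 T cell markers summed to 0.288 to 0.829 CPM with ML141 and 0.388 to 0.604 CPM with DMSO, with CD3D and CD3G at 0. Of 5 myeloid markers 3 were tested, 1 was lower and 0 higher, with sums of 35.3 to 38.7 CPM with ML141 and 45.8 to 48.0 CPM with DMSO. EPCAM, KRT18 and HBB were also at 0. The part of these marker levels in the results below was not tested. CDC42, whose protein the compound inhibits, averaged 201.5 ± 10.8 CPM with ML141 and 277.4 ± 2.50 CPM with DMSO (SD, n = 3 each); 62.6% of its exon bases are shared with the gene AL031281.2 on the same strand.

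MYC mRNA was lower and several of its antagonists were higher in ML141-treated cells. MYC fell to 0.643 of its DMSO level, while MXD1, MXD4 and MXI1 rose 1.87-fold, 2.27-fold and 2.08-fold. Of the dimerization partners, MAX rose 1.38-fold and MLX did not pass the test, and MLXIP rose 2.29-fold. In all, 6 of the 10 members passed the test, 5 higher and 1 lower. Across all genes 54.4% passed, 26.7% higher and 27.7% lower, so a count of 6 is close to the background share. The median log2 fold change was 0.31 over the 10 members and 0.02 over all genes tested. A complete gap between the groups' libraries was seen in 7 members, against 61.2% of all genes. A called difference of at least 2-fold was seen in 3 members, MXD4, MXI1 and MLXIP, against 13% of all genes.

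**Figure D1:**
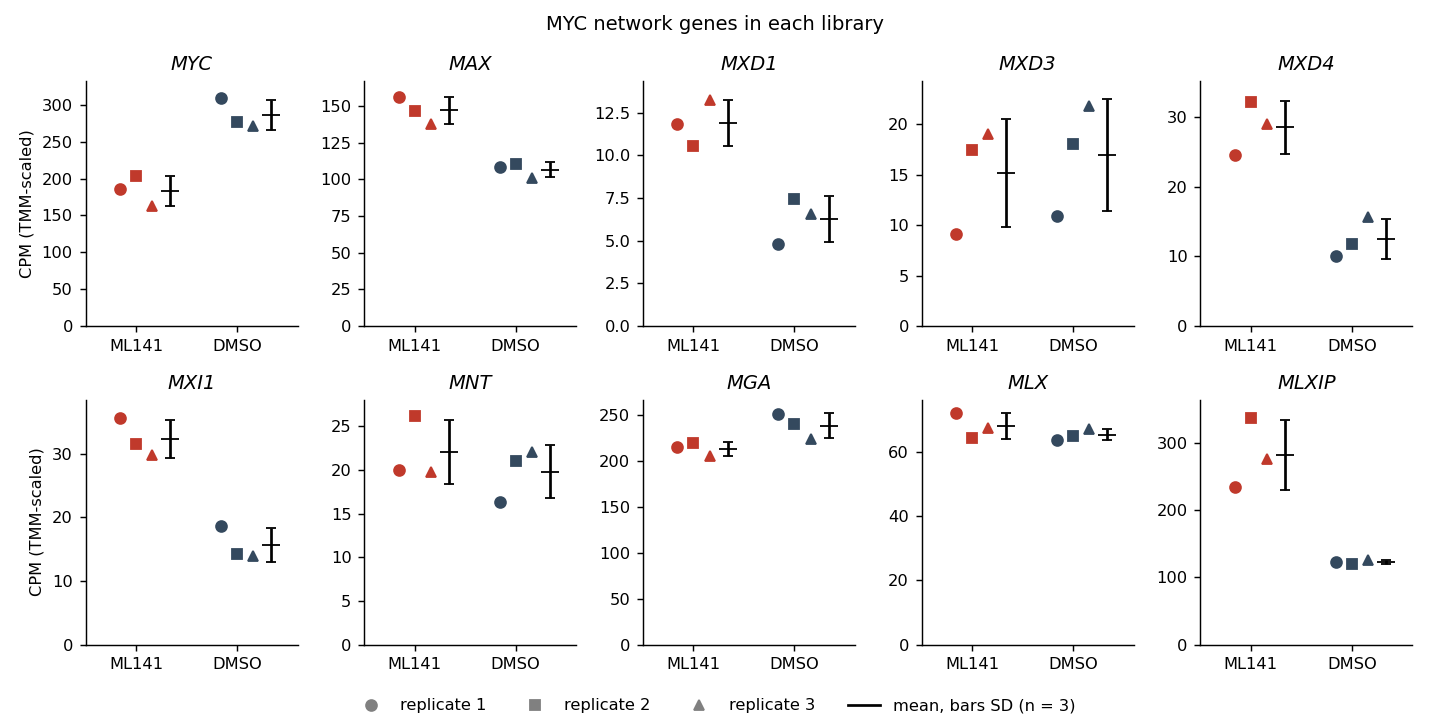
Level of each network gene in CPM (y axis, TMM-scaled) in the 3 ML141 libraries and the 3 DMSO libraries, with points for single libraries shaped by replicate number, short bars for the mean and error bars for the SD (n = 3). MYC is lower in every ML141 library, MAX, MXD1, MXD4, MXI1 and MLXIP are higher in every ML141 library, and MXD3 is lowest in replicate 1 of either group.

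MYC, the network's activator, lies on chromosome 8 from 127735434 to 127741434 (hg38). It stood at 185.6, 202.9 and 162.5 CPM in ML141 replicates 1, 2 and 3, against 309.2, 276.6 and 271.6 CPM in DMSO replicates 1, 2 and 3. Every ML141 library was below every DMSO library, and the highest ML141 value was 202.9 CPM against a lowest DMSO value of 271.6 CPM. The log2 fold change was -0.64 (SE 0.095, edgeR adjusted p = 1.53e-04). These levels rest on 1890 to 2690 counts per library with ML141 and 2385 to 2817 with DMSO. The size of the fall depended on scaling, at -0.46 with library totals in place of TMM factors (adjusted p = 0.00143). The authors' deposited table gives -0.645 for this gene.

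MAX, the partner that MYC, MXD, MNT and MGA proteins share, lies on chromosome 14 from 65006174 to 65102695. Its levels were 156.4, 146.9 and 137.8 CPM in ML141 replicates 1, 2 and 3, against 108.6, 110.5 and 100.7 CPM in the DMSO replicates in the same order. The groups did not overlap, and the log2 fold change was 0.46 (SE 0.084, edgeR adjusted p = 6.02e-04).

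The MXD family, small repressors that bind SIN3, split into 3 genes that rose and 1 that did not pass the test. MXD4 (chromosome 4, 2247432 to 2262294) had 24.5, 32.1 and 29 CPM in ML141 replicates 1, 2 and 3, against 10.1, 11.7 and 15.7 CPM in DMSO replicates 1, 2 and 3. Its lowest ML141 library lay above its highest DMSO library, and the log2 difference was 1.18 (SE 0.169, edgeR adjusted p = 1.10e-04). MXI1 (chromosome 10, 110207605 to 110287365), also known as MXD2, had 35.6, 31.5 and 29.8 CPM with ML141, against 18.7, 14.2 and 13.9 CPM with DMSO. Here too the groups stood apart, with 1.06 on the log2 scale (SE 0.141, edgeR adjusted p = 6.32e-05). MXD1 (chromosome 2, 69897688 to 69942945) was the least abundant member and rests on 37 to 72 counts per DMSO library. It had 11.9, 10.6 and 13.2 CPM with ML141, against 4.80, 7.46 and 6.56 CPM with DMSO, which gives 0.91 on the log2 scale (SE 0.187, edgeR adjusted p = 1.49e-03). The 3 genes were higher in every ML141 library than in any DMSO library.

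MXD3 (chromosome 5, 177301461 to 177312757) is the family member known for expression in proliferating cells. It had 9.08, 17.4 and 19.0 CPM in ML141 replicates 1, 2 and 3, against 10.9, 18.0 and 21.8 CPM in DMSO replicates 1, 2 and 3. The groups overlapped throughout, and in either group replicate 1 was the lowest. The log2 fold change was -0.16 (SE 0.272, edgeR adjusted p = 0.630), and its sign turned with library totals (0.01), without ML141 replicate 1 (0.08) and without DMSO replicate 3 (0.06). PRELID1, on the opposite strand, shares 22.2% of the MXD3 exon bases. PRELID1 averaged 34.2 ± 0.35 CPM with ML141 and 51.4 ± 3.16 CPM with DMSO, and as TruSeq RNA v2 libraries carry no strand information, reads over the shared bases fit either gene.

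MNT and MGA, the larger repressors of the network, did not pass the test. MNT (chromosome 17, 2384060 to 2401118), a MAX partner present in dividing and resting cells, had 20.0, 26.2 and 19.8 CPM with ML141, against 16.3, 21.0 and 22.1 CPM with DMSO. These ranges overlapped, with 0.15 on the log2 scale (SE 0.156, edgeR adjusted p = 0.443), or -0.0028 without ML141 replicate 2. Its exons share 21.3% of their bases with AC006435.1 on the opposite strand, a gene not named among the deposited entries. MGA (chromosome 15, 41621224 to 41773081), the scaffold that links MAX to a Polycomb complex, had 215.3, 219.8 and 205.2 CPM with ML141, against 251.1, 240.1 and 224.0 CPM with DMSO. All ML141 libraries were below all DMSO libraries, but the difference of -0.16 (SE 0.077) did not pass the test (edgeR adjusted p = 0.101), and with library totals it was 0.01.

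In the parallel branch, MLXIP had the highest log2 fold change of the 10 genes. MLXIP (chromosome 12, 122078722 to 122147347) encodes MondoA, which moves to the nucleus when glucose 6-phosphate accumulates. It had 234.1, 336.7 and 276.3 CPM in ML141 replicates 1, 2 and 3, against 122.9, 120.1 and 126.3 CPM in DMSO replicates 1, 2 and 3. The groups were far apart, the ML141 libraries varied more among themselves than the DMSO libraries, and the log2 fold change was 1.20 (SE 0.116, edgeR adjusted p = 5.84e-06). MLX (chromosome 17, 42567068 to 42573239), its dimer partner, had 72.3, 64.3 and 67.4 CPM with ML141, against 63.8, 65.0 and 67.3 CPM with DMSO. Its groups overlapped with 0.06 on the log2 scale (SE 0.089, edgeR adjusted p = 0.617), and -0.0091 without replicate 1 of either group. With library totals MLX passed the test at 0.23 (adjusted p = 0.0342). A share of 29.7% of its exon bases overlaps PSMC3IP on the opposite strand, which averaged 9.34 ± 2.48 CPM with ML141 and 26.2 ± 1.01 CPM with DMSO. Exon overlap was 2.63% for MAX, 1.97% for MXD4, 5.06% for MXI1 and 3.36% for MGA, and MYC, MXD1 and MLXIP had none in the GENCODE basic annotation. The genes overlapping MAX, MXI1 and MGA are not named among the deposited entries, unlike PRELID1, PSMC3IP and the gene overlapping MXD4.

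**Figure D2:**
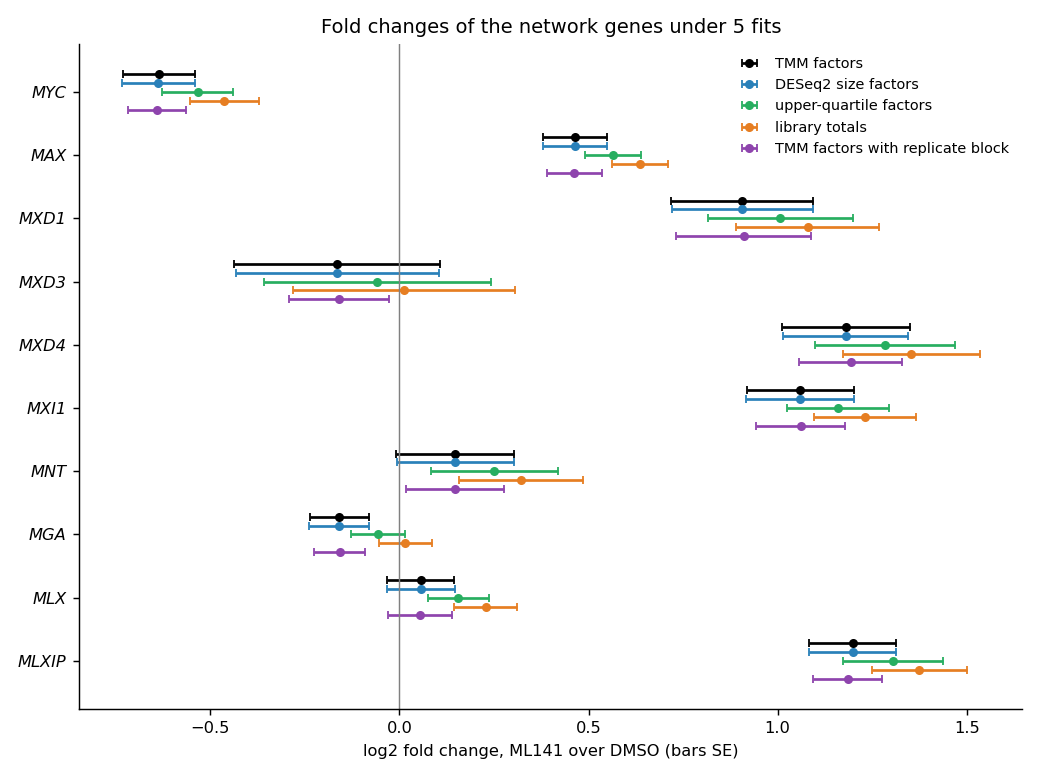
Log2 fold change of ML141 over DMSO (x axis) for each network gene, as points with SE bars, under TMM factors, DESeq2 size factors, upper-quartile factors, library totals and TMM factors with the replicate number as a block. MYC lies below 0 and MAX, MXD1, MXD4, MXI1 and MLXIP lie above 0 in all 5 fits, while MXD3 and MGA change sign with library totals.

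To set the members beside each other, levels were divided by exon length. The order in ML141 cells was MYC at 61.2 ± 6.75 CPM per kilobase of exon, MAX at 35.8 ± 2.26, MLXIP at 30.0 ± 5.48, MLX at 26.3 ± 1.54, MGA at 14.1 ± 0.49, MXI1 at 7.98 ± 0.73, MXD4 at 7.04 ± 0.94, MXD3 at 4.61 ± 1.62, MNT at 4.41 ± 0.73 and MXD1 at 2.12 ± 0.24 (SD, n = 3). In that order MAX overlapped MLXIP, MLXIP overlapped MLX, MXI1 overlapped MXD4 and MXD3 overlapped MNT, and the other neighbours did not overlap. In DMSO cells MYC stood at 95.2 ± 6.81 CPM per kilobase, MAX at 26.0 ± 1.27, MLX at 25.2 ± 0.69, MGA at 15.7 ± 0.90 and MLXIP at 13.1 ± 0.33. Below them were MXD3 at 5.14 ± 1.68, MNT at 3.97 ± 0.61, MXI1 at 3.85 ± 0.66, MXD4 at 3.09 ± 0.71 and MXD1 at 1.12 ± 0.24 CPM per kilobase. Here MAX overlapped MLX, MXD3 overlapped MNT, MNT overlapped MXI1 and MXI1 overlapped MXD4, and the other neighbours did not overlap. MYC was first and MAX second in either group, whereas MLXIP was the third in ML141 cells and the fifth in DMSO cells.

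**Figure D3:**
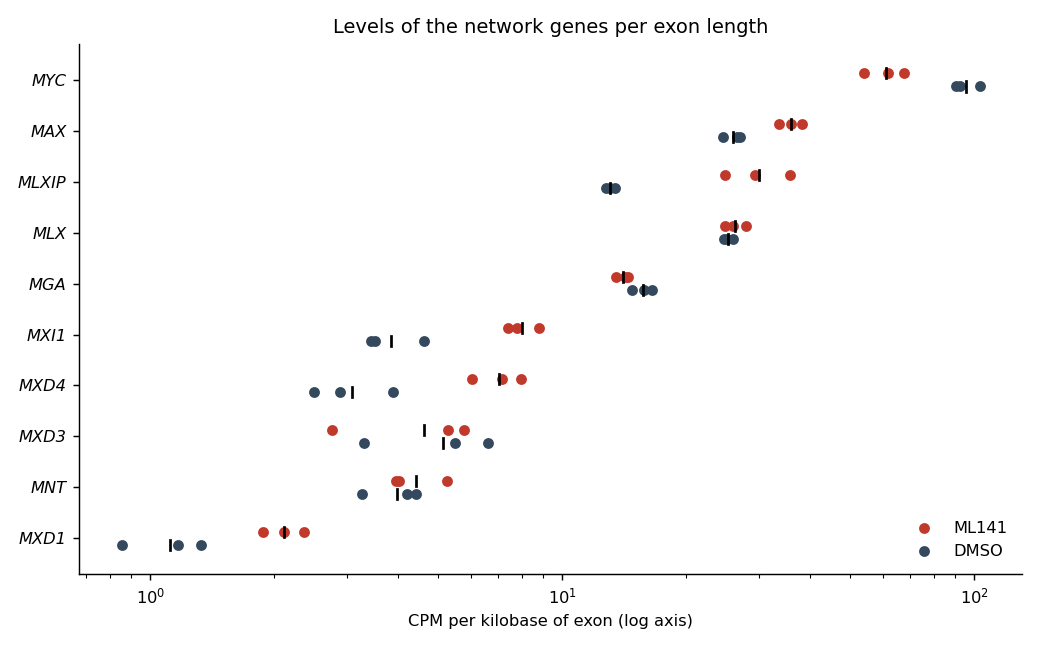
Level of each network gene in CPM per kilobase of exon (x axis, log scale) in single libraries, with ML141 above DMSO in each row and a vertical bar for each mean. MYC has the highest level in both groups, and MLXIP lies between MAX and MLX in ML141 cells but below MGA in DMSO cells.

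Ratios taken within a library do not depend on how libraries are scaled to each other. MYC over MAX, per exon length, was 1.62, 1.89 and 1.61 in ML141 replicates 1, 2 and 3, against 3.89, 3.42 and 3.69 in DMSO replicates 1, 2 and 3. No library of either group came near the other group, and the difference was -1.11 on the log2 scale. The summed level of MXD1, MXD3, MXD4 and MXI1 was 19.7 to 22.9 CPM per kilobase with ML141 and 11.3 to 15.1 with DMSO. MYC over that sum was 3.14, 2.96 and 2.39 in the ML141 replicates, against 9.15, 6.98 and 6.0 in the DMSO replicates. The ratio was lower in every ML141 library, so the MYC transcript was closer in level to the summed MXD transcripts there. MYC over MGA was 4.35 ± 0.33 with ML141 and 6.06 ± 0.21 with DMSO, and MYC over MNT was 14 ± 1.32 with ML141 and 24.6 ± 6.01 with DMSO (SD, n = 3 each). MLXIP over MLX was 0.891, 1.44 and 1.13 in the ML141 replicates, against 0.530, 0.508 and 0.516 in the DMSO replicates. The summed MXD genes over MAX did overlap between the groups, at 0.610 ± 0.082 with ML141 and 0.510 ± 0.096 with DMSO. These ratios are of transcripts, not proteins, and were not tested.

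**Figure D4:**
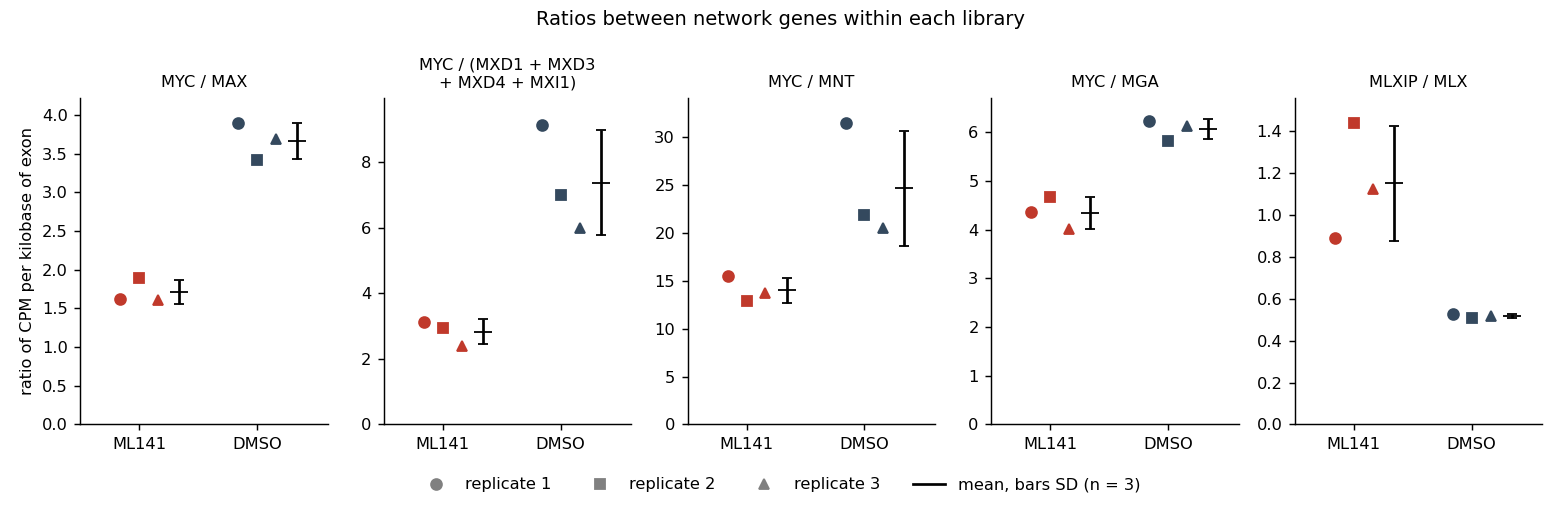
Ratio of CPM per kilobase of exon between network genes within each library (y axis), for ML141 and DMSO libraries, with single libraries as points, means as short bars and SD as error bars (n = 3). All 4 ratios with MYC on top are lower in every ML141 library and MLXIP over MLX is higher in every ML141 library.

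The remaining paralogs had few counts or none. MYCL had 17 counts in the 3 ML141 libraries and 10 in the 3 DMSO libraries, MYCN had 1 and 2, and MLXIPL (ChREBP, the liver relative of MLXIP) had 0 and 1 in the same order. None passed the filter on low counts, and 3 counts, the most that a 0 leaves room for by counting error alone, equal 0.226 to 0.389 CPM depending on the library. EIF4A1 and RING1, which most cells use, were also listed at 0 in every library, so a count at or near 0 here, as for MLXIPL, MYCN, ARRDC4 or VPREB1, may not show low expression; whether the authors' annotation or counting sets such values was not tested.

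Genes known to be activated by MYC were lower in ML141 cells in 33 of 36 tested cases and higher in 1. Of all genes, 27.7% were lower and 26.7% higher. The median log2 fold change of the list was -0.80, against 0.02 for all genes. This list and those below were written with earlier results of these data known, so no set test was run on them. LDHA, lactate dehydrogenase A, averaged 295.5 ± 13.6 CPM with ML141 and 1089.6 ± 57.6 CPM with DMSO. PAICS, an enzyme of purine synthesis, averaged 396.4 ± 11.2 and 1179.5 ± 20.0 CPM, and TFRC, the transferrin receptor, 220.2 ± 9.35 and 729.2 ± 60.3 CPM in the same order (SD, n = 3 each). Their log2 fold changes were -1.88, -1.57 and -1.73 (edgeR adjusted p = 3.09e-08, 6.30e-08 and 7.65e-08). SHMT2, the mitochondrial serine hydroxymethyltransferase, was the gene that rose, at 293.6 ± 15.5 CPM with ML141 and 247.4 ± 8.85 CPM with DMSO. Its call was lost without DMSO replicate 2 (edgeR adjusted p = 0.0943).

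Genes known to be repressed by MYC were higher in 6 of 8 tested cases and lower in 1, against 26.7% and 27.7% of all genes. Their median log2 fold change was 0.85. DDIT3, a stress-induced factor of the CEBP family, averaged 70.5 ± 18.6 CPM with ML141 and 8.12 ± 1.30 CPM with DMSO. NDRG1 averaged 9.78 ± 1.59 CPM with ML141 and 2.12 ± 0.76 CPM with DMSO, and CDKN1B, the cyclin-dependent kinase inhibitor p27, 70.9 ± 11.5 and 38.7 ± 3.49 CPM. CDKN2C, the inhibitor p18, was the gene that fell, by 0.65 on the log2 scale (SE 0.106, edgeR adjusted p = 2.92e-04). These genes also answer to other regulators, and DDIT3 is a target of ATF4.

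Targets of the MLX and MLXIP branch went both ways. TXNIP, the thioredoxin-interacting protein and best known MondoA target, had 183.6, 168.0 and 191.4 CPM in ML141 replicates 1, 2 and 3, against 43.7, 48.5 and 60.6 CPM in DMSO replicates 1, 2 and 3. Every ML141 library was above every DMSO library, with 1.82 on the log2 scale (SE 0.117, edgeR adjusted p = 3.04e-07). ARRDC4, the other classic target, had 0 counts with ML141 and 1 with DMSO. HK2, a hexokinase, fell by 0.52 (SE 0.088) and KLF10, a Kruppel-like factor, by 0.55 (SE 0.183) on the log2 scale. The call on KLF10 (edgeR adjusted p = 0.0222) was lost without DMSO replicate 1 (0.0719), without DMSO replicate 3 (0.0851), with upper-quartile factors (0.0722) and with library totals (0.113). In all 1 of 4 tested genes was higher and 2 were lower, against 26.7% and 27.7% of all genes.

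Cofactors of the network were called in both directions, as were all genes, of which 26.7% were higher and 27.7% lower. Among 15 coactivators and cofactors of MYC, 6 were higher and 6 lower, but only 3 were higher without any 1 of the DMSO libraries. CREBBP, a histone acetyltransferase, CDK9, the kinase of elongation factor P-TEFb, and ZBTB17, the MIZ1 protein through which MYC represses, rose by 0.76 (SE 0.076), 0.87 (SE 0.104) and 0.56 (SE 0.116) on the log2 scale. WDR5, ACTL6A and RUVBL1, which tie MYC to chromatin complexes, stood at -0.71 (SE 0.082), -0.70 (SE 0.082) and -0.63 (SE 0.081).

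Of 14 genes for SIN3, histone deacetylase and NCOR corepressors, 2 were higher and 7 lower, with a median of -0.21; 64.3% were called, close to the 54.4% of all genes. SIN3B, a scaffold bound by MXD proteins, rose by 0.59 (SE 0.114), and NCOR1 rose by 0.24 (SE 0.077), a call lost without ML141 replicate 3 (edgeR adjusted p = 0.0508), DMSO replicate 2 (0.0568) or DMSO replicate 3 (0.0995). The histone-binding subunits RBBP7 and RBBP4 fell by 1.04 (SE 0.076) and 0.75 (SE 0.074), and SAP130 fell by 0.62 (SE 0.097). In the MGA-containing Polycomb complex 1 of 8 tested genes was higher and 4 were lower, or 62.5% called against 54.4% of all genes. TFDP1, the E2F partner, fell by 1.48 (SE 0.135), PCGF6 by 0.83 (SE 0.105) and L3MBTL2 by 0.57 (SE 0.099), whereas RYBP rose by 0.65 (SE 0.124). PCGF6 and L3MBTL2 are the subunits that mark this complex among Polycomb complexes.

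**Figure D5:**
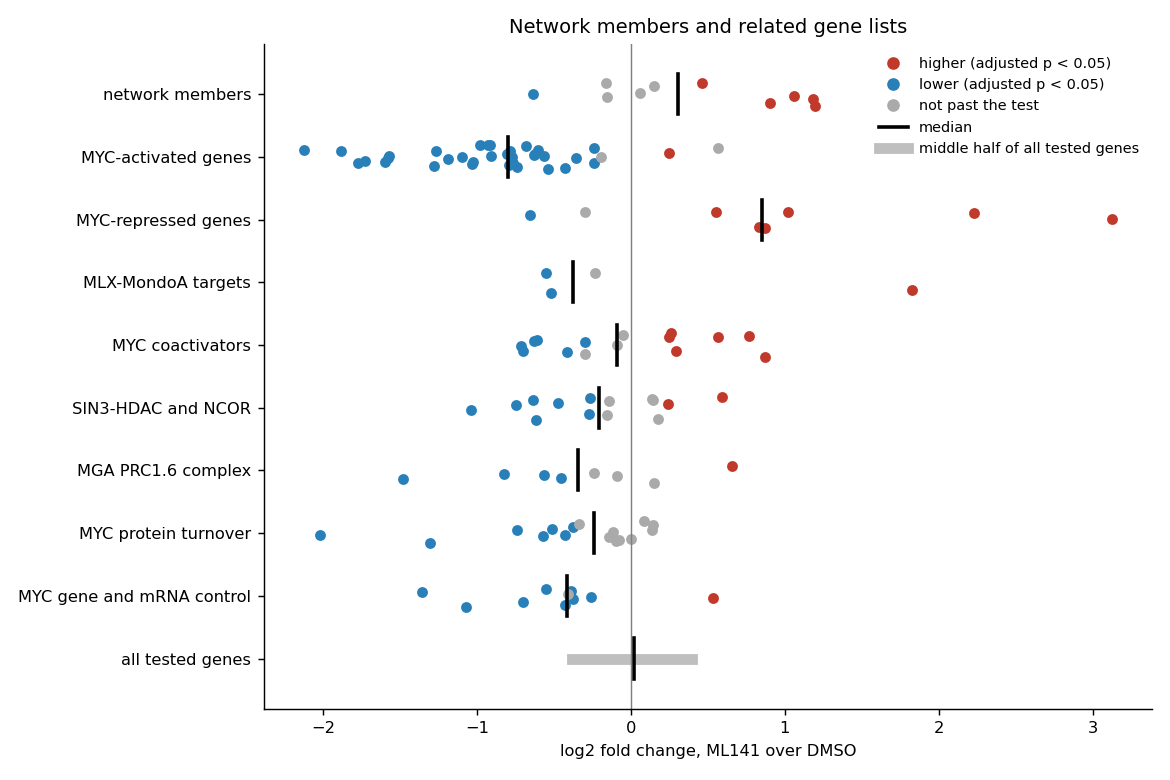
Log2 fold change of ML141 over DMSO (x axis) for the 10 network members and the tested genes of 8 related lists, with points coloured by the edgeR call and black bars for medians; the bottom row gives the middle range, from the 25th to the 75th percentile, and the median of all 11454 tested genes. MYC-activated genes lie mostly below 0 with a median of -0.80 and MYC-repressed genes mostly above 0 with a median of 0.85.

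Regulators of MYC itself form a pair of lists. Of 16 genes of MYC protein turnover 0 were higher and 7 lower by edgeR, so 43.8% were called, a smaller share than the 54.4% of all genes. The count higher was also 0 at an unadjusted p under 0.05, by DESeq2 and by limma-voom, but 2 with upper-quartile factors and 3 with library totals. The lower genes included SKP2, a ubiquitin ligase subunit that targets MYC, at -2.02 (SE 0.101), KIAA1524 (CIP2A, which protects MYC from dephosphorylation) at -1.31 (SE 0.117), and the deubiquitinase USP37 at -0.74 (SE 0.098). FBXW7, the ligase subunit that recognizes phosphorylated MYC, stood at -0.38 (SE 0.091), and is named here beyond the rule for its role. Of 10 genes acting on the MYC gene or its mRNA, 8 were lower and 1 higher, against 27.7% and 26.7% of all genes. FUBP1, which binds a far upstream element of MYC, fell by 1.07 (SE 0.075), ELAVL1 by 0.70 (SE 0.080) and IGF2BP1, which stabilizes MYC mRNA, by 0.55 (SE 0.097). PVT1, the long noncoding RNA gene next to MYC, rose to 15 ± 1.13 CPM with ML141, against 10.4 ± 0.59 CPM with DMSO (edgeR adjusted p = 7.02e-03). That call was lost without replicate 3 of both groups (adjusted p = 0.101).

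The genes most like MYC across the 6 libraries, by Pearson correlation of log2 CPM among the 9680 genes averaging 5 CPM or more, were C5orf30, APEX1, SLC8A1, ENAH and PANK1. Their correlations with MYC were 0.998, 0.997, 0.995, 0.994 and 0.992. The points share 2 treatment groups and the library scaling, and 1517 genes had a correlation above 0.9. APEX1, an abasic-site endonuclease, is also in the list of MYC-activated genes, where it stood at -0.24 (SE 0.075).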

How the data were processed

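RNA of REH cells was purified on columns, and TruSeq RNA v2 libraries were sequenced, per the labels' protocols. The deposited table holds unnormalized counts per gene symbol. Further deposited columns are scores, the counts over a library's size factor as the authors rounded them, which entered no test. The authors' comparison adds a log2 fold change and a raw and an adjusted p-value. Per the submitters' processing notes the tools included bcl2fastq 2.19, Trimmomatic and Bowtie2, then Picard, featureCounts and DESeq2, with build hg38; the gene annotation, the settings and the strand mode were not given in the sources used here.

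Column names were assigned by the samples' descriptions, and groups and replicate numbers came from the titles. Libraries of a group differed by more than sampling noise (chi-square per degree of freedom 2.90 to 18.4), so none was counted as a duplicate; where cultures were not separate, p-values measure technical spread. Genes were filtered with filterByExpr (minimum count 10, minimum total 15), scaled by TMM and compared by the quasi-likelihood test of edgeR 4.0.16 in R 4.3.3, with group as the only term, 2-sided. The test was tested on simulated data. SE is the size of the log2 fold change over the square root of F. Positions, exon lengths and overlaps came from GENCODE release 29 basic annotation (GRCh38, the same build). Named genes were the members, CDC42, detected paralogs, and in each list up to 3 called genes per direction with the smallest p, plus the 5 genes most like MYC. The members, the 9 gene lists and the marker lists were chosen with earlier results of these data known, so no set test was run. Alternatives were other scaling factors, no or a stricter low-count filter (mean count 10 per group and 1 CPM in 3 libraries), DESeq2 1.42.0, limma-voom (limma 3.58.1), the replicate number as a block, libraries or replicate numbers left out, and transcript length in place of exon length.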

Additional observations from a re-analysis of the deposited data

How the results depend on the processing

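MYC stayed lower and MAX, MXD1, MXD4, MXI1 and MLXIP stayed higher, past the threshold, under each of 17 alternatives, and 6 members were called in every setting except library totals, where MLX made it 7. Median log2 fold changes of all genes moved up by 0.10 with upper-quartile factors and 0.17 with library totals, and the share of changed genes that were higher was 59.5% and 66.1%, against 49.1% with TMM factors. Signs turned in 4 members that had no call: with library totals MXD3 stood at 0.0112 and MGA at 0.0149, and over the settings that left out libraries MXD3 ranged from -0.390 to 0.0822, MNT from -0.00280 to 0.306 and MLX from -0.00907 to 0.0947. The cause was not tested.

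With upper-quartile factors 2 genes of MYC turnover were higher and 1 MLX target lower, and with library totals 3 turnover genes, 2 genes of the MGA complex and 2 MYC-activated genes were higher and 1 MLX target lower. With no low-count filter 2 MYC-activated genes were higher. Leaving out libraries moved the genes higher from 1920 to 3195 (1920 without replicate 3 of both groups), coactivators higher from 3 to 5, SIN3 and NCOR genes higher from 1 to 3, MYC-activated genes higher from 0 to 2, MYC mRNA control genes higher from 0 to 1 and MLX targets lower from 1 to 3. The log2 differences in the ratios between the groups moved by less than the spread between replicates, but the ratios themselves depended on the length used. Per longest transcript, MYC over MNT was 17.75 with ML141 and 31.2 with DMSO, MYC over MGA was 5.24 with ML141 and 7.32 with DMSO, and MLXIP over MLX was 1.29 with ML141 and 0.578 with DMSO.

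The replicate number as a block gave 3441 genes higher and 3538 lower, and 6 members changed, with MGA at an adjusted p of 0.0558. Same-numbered libraries share a tag in their column names across the groups, so they may come from the same experiment. Their deviations from the group means correlated at 0.374, 0.0847 and 0.178, and ML141 replicate 2 correlated best with DMSO replicate 3 (0.291). These correlations, from 3 libraries per group, cannot decide whether the numbers pair the samples. The main test left the replicate number out, and the block is given as an alternative. Low counts limit MXD1 most, with 37 counts in DMSO replicate 1, and leave MYCN, MYCL and MLXIPL untested. Why these counts were low was not tested.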

Other observations

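Among genes of the related lists, 2 that most cells use were listed at 0 in all 6 libraries: EIF4A1, an RNA helicase of translation initiation that MYC activates, and RING1, a Polycomb ubiquitin ligase subunit. PUF60, a splicing factor that also binds the MYC upstream element, had 51 counts in the ML141 libraries together and 53 in the DMSO libraries. These 3 genes were picked out after their values were seen.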
